A study of Rattus norvegicus with 6 samples.

Results

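The genes described here are 7 subunits of the nicotinic acetylcholine receptor (Chrna2, Chrna3, Chrna4, Chrna5, Chrna7, Chrnb2 and Chrnb4) and 3 partner proteins of that receptor (Ric3, Lynx1 and Ly6h). They were chosen by name and not by a threshold on their values, and are 10 of the 30076 gene symbols in the tables. Each had 1 row of its own in every library, and in no library was a member joined with another gene in a row. The rats were male, of the strain F344 and 18 months old. In the manipulated group, 3 rats (replicates 4, 5 and 6) had cranial osteopathic manipulation (COM), hands-on work on the skull, for 7 days while under 1.5 to 3% isoflurane. The untreated group was 3 rats (replicates 1, 2 and 3) that were also anaesthetised. Each library came from the RNA of 1 rat, from a coronal slab 1 mm thick labelled prefrontal cortex. The labels name no batch, date or litter, and the p-values measure the spread between these 6 rats.

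Nicotinic receptors are channels made of subunits around a central pore that opens when acetylcholine binds. In the brain, α4 (Chrna4) and β2 (Chrnb2) join in the receptor with high affinity for nicotine, α7 (Chrna7) can form a receptor alone, and α3 (Chrna3) and β4 (Chrnb4) join in receptors of autonomic ganglia and of the medial habenula. In rodents Chrna4 and Chrnb2 are widely transcribed and abundant in the thalamus. RIC3 is a chaperone of the endoplasmic reticulum that helps subunits assemble, while Lynx1 and Ly6h belong to the Ly6 family of small proteins that are held at the membrane and bind nicotinic receptors.

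Levels are given in FPKM, which divides the fragments of a gene by its length and by all fragments mapped in that library, so that genes can be compared with each other within a library. Of the 10 members, 6 averaged at least 1 FPKM across all libraries and were tested with limma together with all 10657 such genes, on the log2(FPKM + 1) scale. The remaining 4 members (Chrna2, Chrna3, Chrna5 and Chrnb4) lay under that filter. Of all tested genes, 0.357% passed an adjusted p of 0.05 (0.272% lower and 0.0845% higher in manipulated rats), and 15.1% had an unadjusted p under 0.05. Among the members, 0 of 6 passed and 2 of 6, Chrna4 and Chrnb2, had an unadjusted p under 0.05. The whole set of tested genes leaned to lower FPKM in manipulated rats: their median log2 fold change was -0.36, and 87.0% of them lay below 0. For the 6 members the median was -0.33, and 5 of 6 lay below 0. After median-ratio scaling between libraries the median was -0.0037 over all genes and 0.055 over the members, and 2 of 6 members lay below 0. In a piece of tissue, fewer cells of a type and less RNA per cell cannot be told apart.

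The promoters of the subunits are shown because members that lie side by side in the genome, or whose products form a receptor together, can be compared at their start sites as well as in their levels. RefSeq sequences of the rat assembly GRCr8, with 250 bases before and 50 after the start of the gene, matched 6 of the 10 members and not Chrna2, Ric3, Lynx1 and Ly6h. They are written 5′ to 3′ on the gene's own strand. Capitals mark the GC box GGGCGG or its complement CCGCCC, and the E-box CACGTG, which reads the same on both strands. No marked motifs overlapped. The windows are chr3:188534477-188534776 for Chrna4, chr2:177487257-177487556 for Chrnb2, chr1:126249080-126249379 for Chrna7, chr8:64311202-64311501 for Chrna3 and chr8:64333060-64333359 for Chrnb4, all on the minus strand, and chr8:64265629-64265928 for Chrna5 on the plus strand.
Chrna4: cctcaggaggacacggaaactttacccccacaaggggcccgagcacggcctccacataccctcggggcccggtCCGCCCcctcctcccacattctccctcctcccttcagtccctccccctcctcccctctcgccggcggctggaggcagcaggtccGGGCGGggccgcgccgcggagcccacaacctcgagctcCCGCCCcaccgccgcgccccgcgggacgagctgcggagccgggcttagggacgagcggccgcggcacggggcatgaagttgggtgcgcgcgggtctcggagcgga
Chrnb2: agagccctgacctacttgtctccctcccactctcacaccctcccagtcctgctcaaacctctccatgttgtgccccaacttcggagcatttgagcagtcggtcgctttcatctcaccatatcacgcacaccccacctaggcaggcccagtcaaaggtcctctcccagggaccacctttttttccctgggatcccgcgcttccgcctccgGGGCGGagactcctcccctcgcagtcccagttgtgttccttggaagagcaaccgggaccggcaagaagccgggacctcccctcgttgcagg
Chrna7: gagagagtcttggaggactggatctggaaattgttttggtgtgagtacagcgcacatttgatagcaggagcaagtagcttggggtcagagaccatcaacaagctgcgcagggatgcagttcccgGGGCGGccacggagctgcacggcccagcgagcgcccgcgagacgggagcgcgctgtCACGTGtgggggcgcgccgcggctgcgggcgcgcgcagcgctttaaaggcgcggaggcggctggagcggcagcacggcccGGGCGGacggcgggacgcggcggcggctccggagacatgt
Chrna3: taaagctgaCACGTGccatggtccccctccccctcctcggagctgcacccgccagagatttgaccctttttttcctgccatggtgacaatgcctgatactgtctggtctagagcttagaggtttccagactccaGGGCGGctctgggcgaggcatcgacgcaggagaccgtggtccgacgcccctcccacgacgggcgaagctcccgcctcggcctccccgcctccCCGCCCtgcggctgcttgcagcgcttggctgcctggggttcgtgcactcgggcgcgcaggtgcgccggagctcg
Chrnb4: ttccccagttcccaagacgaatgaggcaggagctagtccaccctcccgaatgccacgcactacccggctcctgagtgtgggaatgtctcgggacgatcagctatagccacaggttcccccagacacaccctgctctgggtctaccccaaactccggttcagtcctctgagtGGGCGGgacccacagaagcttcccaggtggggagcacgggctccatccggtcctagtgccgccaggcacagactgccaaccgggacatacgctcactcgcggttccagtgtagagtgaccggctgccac
Chrna5: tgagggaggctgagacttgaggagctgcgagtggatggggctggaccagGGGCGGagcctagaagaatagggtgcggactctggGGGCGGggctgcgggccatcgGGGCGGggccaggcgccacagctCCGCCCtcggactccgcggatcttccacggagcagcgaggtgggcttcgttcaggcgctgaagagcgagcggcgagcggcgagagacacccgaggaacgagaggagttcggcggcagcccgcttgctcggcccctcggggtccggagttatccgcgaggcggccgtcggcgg

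A GC box was in 6 of the 6 windows, against 33.1% of the 33469 rat promoter windows of the same length. Chrna5 held 4 of them, a number reached or passed by 4.64% of all windows. Chrna4 held 3, which began 177, 93 and 55 bases before the start. Chrna3 and Chrna7 held 2 each, and Chrnb2 and Chrnb4 held 1 each, at 41 and 79 bases before the start. CACGTG was in 2 of the 6 windows and in 6.42% of all windows. It lay 241 bases before the start in Chrna3 and 70 bases before it in Chrna7. The GC content was 74.7% in Chrna4, 71.3% in Chrna5, 68.3% in Chrna7, 66.7% in Chrna3, 62.3% in Chrnb4 and 61.0% in Chrnb2, against a median of 51.7% over all windows. These matches are a description of the letters and say nothing of binding. Neighbouring Chrna3 and Chrnb4, whose levels are given beside each other further on, differed in both motif counts.

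Chrna4 and Chrnb2, the subunits of the high-affinity receptor, were the members with the most negative log2 fold changes among those tested. Chrna4 (chromosome 3, 176527516 to 176548208, Rnor_6.0) had 3.81, 4.52 and 3.58 FPKM in manipulated replicates 4, 5 and 6, against 10.9, 9.24 and 10.7 FPKM in untreated replicates 1, 2 and 3. Every manipulated library lay below every untreated one, and the intervals of the deposited estimates were apart as well, with a highest bound of 4.93 FPKM in manipulated and a lowest bound of 8.71 FPKM in untreated rats. The means were 3.97 ± 0.485 FPKM in manipulated and 10.3 ± 0.912 FPKM in untreated rats (SD, n = 3 each), a ratio of 0.386. The log2 fold change of Chrna4 was -1.18 (SE 0.22), with a limma adjusted p of 0.0836, and 2.21% of tested genes had a log2 fold change at least as negative. With a robust variance prior the limma adjusted p was 0.0438, and with weights per library it was 0.00678, so that the call depends on how limma models the variance. Over all 10657 tested genes, 38 passed in the main fit, 84 with that prior and 940 with those weights. Within a library, Chrna4 stood at or above 48.0, 54.0 and 59.9% of tested genes in the manipulated rats, against 73.6, 77.4 and 74.2% in the untreated rats.

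Chrnb2 (chromosome 2, 189088570 to 189096785) had 6.47, 6.29 and 4.11 FPKM in manipulated rats, against 14.1, 11.0 and 9.61 FPKM in untreated rats. Here too the groups did not overlap, and the deposited intervals were apart, at up to 7.04 FPKM in manipulated and from 8.89 FPKM in untreated rats. The means were 5.63 ± 1.31 FPKM in manipulated and 11.6 ± 2.29 FPKM in untreated rats, and the log2 fold change of -0.93 (SE 0.26) had a limma adjusted p of 0.270. A fold change at least as negative was seen in 4.6% of tested genes. With weights per library Chrnb2 passed, with a limma adjusted p of 0.0481, in a setting where 940 of 10657 tested genes passed. The end of the neighbouring gene Adar overlaps Chrnb2, and without strand information reads of overlapping genes cannot be told apart. Adar had 10.7, 10.4 and 7.05 FPKM in manipulated and 11.2, 7.97 and 12.2 FPKM in untreated rats, so that its groups overlapped. After median-ratio scaling Chrna4 had a log2 fold change of -0.79 and Chrnb2 of -0.53, with limma adjusted p of 0.121 and 0.307, and both genes' groups still did not overlap. On that scale 2.82% of tested genes were at least as negative as Chrna4 and 5.39% as Chrnb2. In the same libraries, markers of the thalamus summed to 19.4 to 31.8 FPKM in manipulated and 118 to 136 FPKM in untreated rats, and their part in the values of Chrna4 and Chrnb2 was not tested. Over all tested genes, 23.7% had groups that did not overlap and lay lower in manipulated rats, or 9.85% after the scaling, while 1.08% were apart and higher as deposited.

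**Figure D1:**
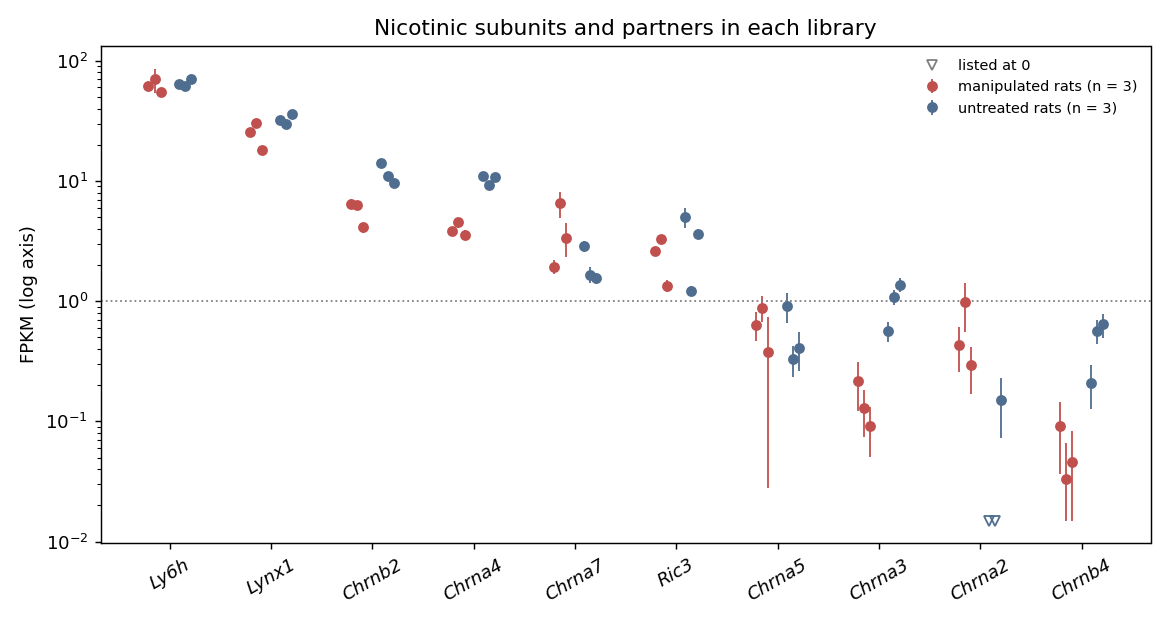
FPKM of each member in each library on a log axis, with the manipulated rats left of the untreated rats (n = 3 each) and vertical lines for the interval of the deposited estimate, cut near the lower edge of the axis. Chrna4, Chrnb2, Chrna3 and Chrnb4 were lower in all manipulated rats, Chrna2 was listed at 0 in 2 untreated libraries, and the dotted line marks 1 FPKM.

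Chrna7, the subunit of the α7 receptor, had a positive log2 fold change. Its row (chromosome 1, 123898416 to 124039261 in untreated replicate 1) had 1.94, 6.52 and 3.38 FPKM in manipulated rats, against 2.89, 1.66 and 1.56 FPKM in untreated rats. Manipulated replicates 5 and 6 stood above all untreated rats and replicate 4 stood among them. The means were 3.95 ± 2.35 FPKM in manipulated and 2.03 ± 0.739 FPKM in untreated rats (SD, n = 3 each). The log2 fold change was 0.62 (SE 0.35), with a limma adjusted p of 0.337, and 3.21% of tested genes had one at least as positive. The widest intervals of the gene were in the highest libraries, 4.96 to 8.09 FPKM in manipulated replicate 5 and 2.32 to 4.45 FPKM in replicate 6. Without replicate 5 the log2 fold change was 0.27, and with median-ratio scaling it was 0.96, with a limma adjusted p of 0.409. Loci with no gene name within the span of Chrna7 summed to 3.28, 1.41 and 1.84 FPKM in manipulated rats. In untreated rats they summed to 38.0, 3.80 and 5.86 FPKM. They are not counted in the levels, shares or ratios of Chrna7, and whether they belong to the gene was not tested.

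The partner proteins overlapped between groups. Ric3 had 2.63, 3.26 and 1.34 FPKM in manipulated rats, against 5.04, 1.22 and 3.62 FPKM in untreated rats. Its untreated libraries span the manipulated ones, and its row overlaps that of Tub, whose reads could not be told apart from it where both are transcribed. The log2 fold change of Ric3 was -0.26 (SE 0.38), with a limma adjusted p of 0.645, and 0.074 after median-ratio scaling. Lynx1, which makes α4β2 receptors less sensitive to acetylcholine, had 25.7, 30.5 and 18.2 FPKM in manipulated rats, against 31.9, 29.9 and 35.9 FPKM in untreated rats. Manipulated replicate 5 lay within the untreated values and replicates 4 and 6 lay below them. The log2 fold change of Lynx1 was -0.41 (SE 0.29), with a limma adjusted p of 0.395, and 0.036 after the scaling. Ly6h, which limits the α7 receptor at the cell surface, had 62.0, 70.1 and 54.5 FPKM in manipulated rats, against 64.3, 62.0 and 70.1 FPKM in untreated rats. The values of Ly6h were the highest of all members in every library, and the means were 62.2 ± 7.82 FPKM in manipulated and 65.5 ± 4.17 FPKM in untreated rats. The log2 fold change of Ly6h was -0.079 (SE 0.28), with a limma adjusted p of 0.847. After the scaling it was 0.37, with a limma adjusted p of 0.448, and every manipulated library then lay above every untreated one, as for 10% of tested genes.

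**Figure D2:**
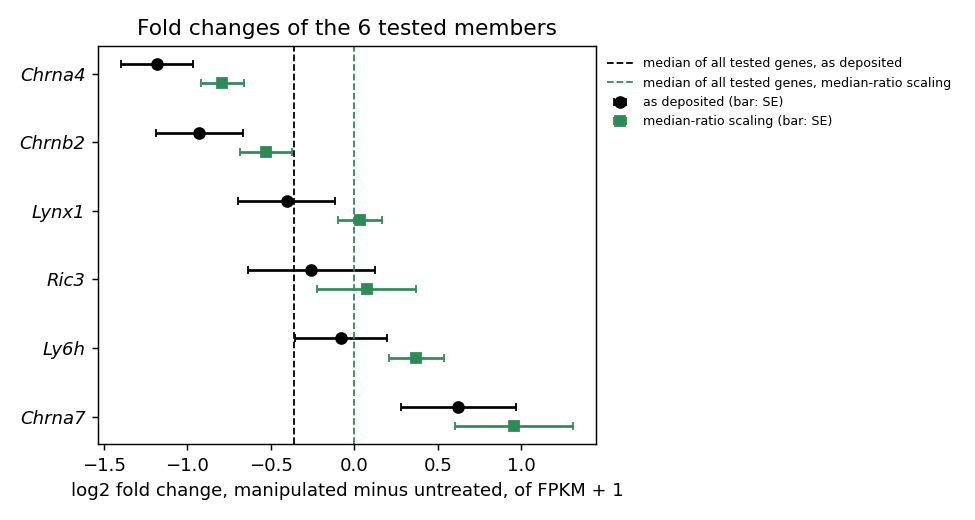
Log2 fold change, manipulated minus untreated, with its standard error, of the 6 tested members as deposited and after median-ratio scaling. Chrna4 and Chrnb2 lie below 0 on both scales and Chrna7 above 0 on both, while Ric3, Lynx1 and Ly6h lie below 0 as deposited and above 0 after scaling.

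Chrna5, Chrna3 and Chrnb4 lie side by side on chromosome 8. Row ends differed between libraries, and the positions printed here are not those of every library. Between the median row ends over all libraries, the gaps were 2106 bases from Chrna5 to Chrna3 and 2417 bases from Chrna3 to Chrnb4. Chrna3 (59592403 to 59607275) had 0.219, 0.128 and 0.0918 FPKM in manipulated rats, against 0.569, 1.09 and 1.37 FPKM in untreated rats. The groups were apart, and so were the deposited intervals, at up to 0.315 FPKM in manipulated and from 0.461 FPKM in untreated rats. Mean Chrna3 was 0.146 ± 0.0653 FPKM in manipulated and 1.01 ± 0.406 FPKM in untreated rats (SD, n = 3 each), a ratio of 0.145, which is the ratio of the FPKM and carries no pseudocount. Fitted with no filter, its log2 fold change was -0.79 (SE 0.17), with a limma adjusted p of 0.387. The pseudocount of 1 FPKM shrinks the fold change of so low a gene.

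Chrnb4 (59609693 to 59629133) had 0.0913, 0.0332 and 0.0458 FPKM in manipulated rats, against 0.210, 0.568 and 0.642 FPKM in untreated rats. Its groups did not overlap either, but the deposited intervals met, since manipulated replicate 4 reached up to 0.146 FPKM and untreated replicate 1 down to 0.127 FPKM. The means of Chrnb4 were 0.0568 ± 0.0305 FPKM in manipulated and 0.474 ± 0.231 FPKM in untreated rats, a ratio of 0.120. With no filter its limma adjusted p was 0.452. Chrna5 (59561721 to 59590172), an accessory subunit that needs partners to form a channel, had 0.638, 0.886 and 0.381 FPKM in manipulated rats, against 0.918, 0.330 and 0.410 FPKM in untreated rats. These groups overlapped, and the exact permutation p was 0.8. Within the cluster the groups were apart for Chrna3 and Chrnb4 and overlapped for Chrna5. Markers of the medial habenula summed to 11.1 to 14.6 FPKM in manipulated and 16.6 to 25.3 FPKM in untreated rats, and their part in the values of Chrna3 and Chrnb4 was not tested.

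**Figure D3:**
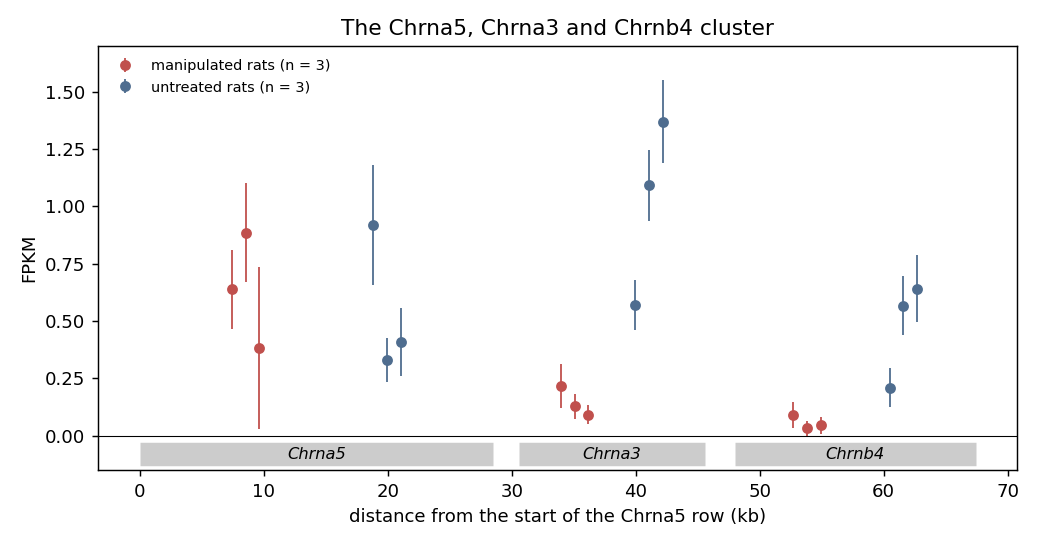
FPKM of Chrna5, Chrna3 and Chrnb4 in each library, drawn over the median position of each row in kb from the start of the Chrna5 row (grey bars). Manipulated rats are left of untreated rats, and vertical lines show the deposited interval. The manipulated values of Chrna3 and Chrnb4 lie below all untreated values of the same gene, and those of Chrna5 lie among them.

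Chrna2 (chromosome 15, 42808897 to 42825179), an α subunit that in rodents marks a subset of interneurons, had 0.432, 0.992 and 0.294 FPKM in manipulated rats. In untreated rats it was listed at 0 in replicates 1 and 2 and at 0.151 FPKM in replicate 3. Every manipulated library was above every untreated one, although the interval of manipulated replicate 6 began at 0.170 FPKM and that of untreated replicate 3 ended at 0.231 FPKM. A locus with no gene name overlapped Chrna2 at 0.579 FPKM in manipulated replicate 4 and at 0.428 FPKM in untreated replicate 3. Such loci are not counted in the values of Chrna2, and whether they belong to the gene was not tested. With no filter Chrna2 had a limma adjusted p of 0.493. Of the 4 members under the filter, 2 had groups apart and lower, 1 apart and higher, and 1 had groups that overlapped. Of the 8973 genes above 0 and under the filter, 15.8% were apart and lower and 1.65% apart and higher, or 8.3 and 5.71% after median-ratio scaling.

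Sums over the subunits are given as deposited, unscaled between libraries, where 87.0% of all tested genes had log2 fold changes below 0. Summed over the 7 subunits, FPKM was 13.6, 19.4 and 11.9 in manipulated rats, against 29.6, 23.9 and 24.4 in untreated rats. As a share of that sum, Chrna4 made up 28.0, 23.3 and 30.1% in manipulated rats, against 36.9, 38.6 and 43.7% in untreated rats. Chrnb2 made up 47.6, 32.5 and 34.6% in manipulated rats, against 47.6, 46.1 and 39.3% in untreated rats. The groups overlapped for Chrnb2 and were apart for Chrna4. Chrna7 made up 14.2, 33.7 and 28.4% in manipulated rats, against 9.75, 6.94 and 6.39% in untreated rats, so that all manipulated rats had the larger share. Chrna5 took 4.16 ± 0.828% in manipulated and 2.05 ± 0.919% in untreated rats, and Chrna3 took 1.01 ± 0.518% in manipulated and 4.03 ± 1.90% in untreated rats (SD, n = 3 each). The shares add up to the whole in a library, so that a smaller share of a subunit raises the others.

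**Figure D4:**
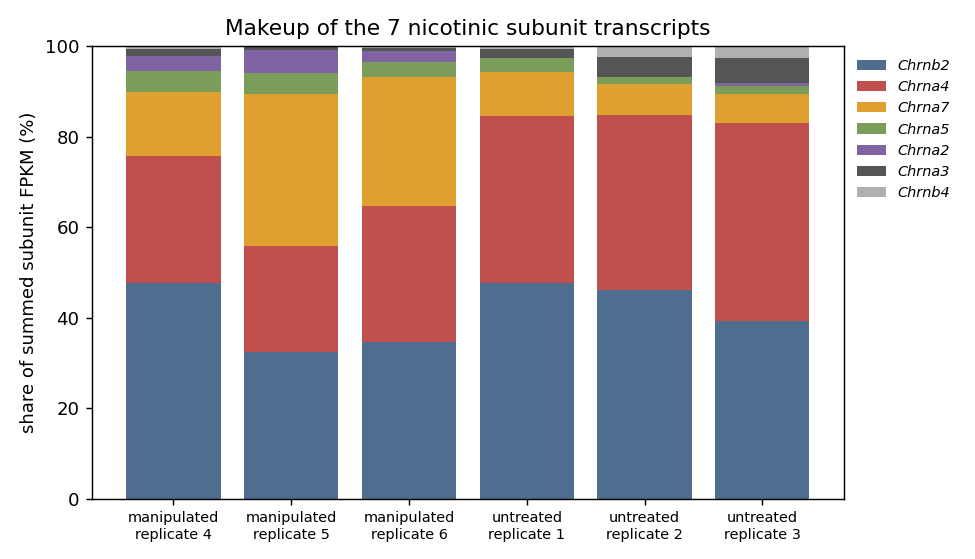
Share of each subunit, in percent, of the summed FPKM of the 7 subunits in each library, with the 3 manipulated rats left of the 3 untreated rats. Chrna4 and Chrnb2 together fill most of each bar, and the Chrna7 share is 14.2 to 33.7% in manipulated rats and 6.39 to 9.75% in untreated rats.

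Ratios of members within a library do not depend on the scaling between libraries, and 8 were compared. In 5 of the 8 the groups did not overlap, each at the lower limit of the exact permutation test for 3 against 3 rats, a p of 0.1, and 0.16 after adjustment over the 8. Chrna7 over Chrna4 was 0.507, 1.44 and 0.944 in manipulated rats, against 0.264, 0.179 and 0.146 in untreated rats, a log2 difference of 2.21. In the manipulated rats the ratio was near or above 1 in replicates 5 and 6, while all untreated ratios lay well below 1. As background, 72.9% of all tested genes had a ratio to Chrna4 that was higher in every manipulated rat, and 45.4% had a ratio to Chrnb2 that was. Chrna7 over Chrnb2 was 0.299, 1.04 and 0.822 in manipulated rats, against 0.205, 0.151 and 0.162 in untreated rats, with a log2 difference of 1.89.

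Chrna5 over Chrna4 was 0.167, 0.196 and 0.106 in manipulated rats, against 0.0841, 0.0358 and 0.0384 in untreated rats. Lynx1 over Chrnb2, the modulator set against a subunit of its receptor, was 3.97, 4.85 and 4.43 in manipulated rats, against 2.27, 2.71 and 3.74 in untreated rats. Each manipulated ratio of both pairs lay above each untreated one. Ly6h over Chrnb2 was 11.3 ± 1.84 in manipulated and 5.83 ± 1.38 in untreated rats (SD, n = 3 each). The subunits that form a receptor together had ratios that overlapped between groups. Chrna4 over Chrnb2 was 0.590, 0.718 and 0.871 in manipulated rats, against 0.775, 0.839 and 1.11 in untreated rats, with an exact permutation p of 0.3 and a log2 difference of -0.32. Chrna3 over Chrnb4 was 2.40, 3.86 and 2.00 in manipulated rats, against 2.71, 1.92 and 2.13 in untreated rats, with an exact permutation p of 0.6. Ric3 over Chrna7 was 1.36, 0.500 and 0.397 in manipulated rats, against 1.74, 0.736 and 2.32 in untreated rats, with an exact permutation p of 0.2. With 3 rats in a group these tests leave wide room for a difference.

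**Figure D5:**
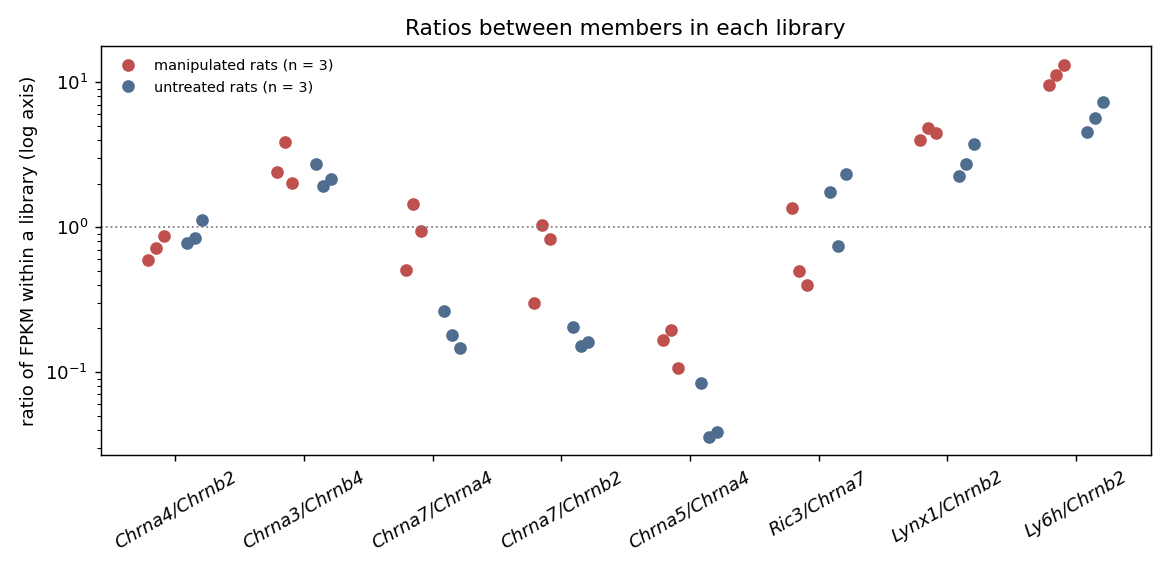
Ratio of the FPKM of 2 members within each library, on a log axis, with manipulated rats left of untreated rats (n = 3 each) and a dotted line at 1. The groups are apart for both Chrna7 ratios, Chrna5 over Chrna4, Lynx1 over Chrnb2 and Ly6h over Chrnb2, and overlap for Chrna4 over Chrnb2, Chrna3 over Chrnb4 and Ric3 over Chrna7.

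By mean FPKM over the 6 rats the order was Ly6h at 63.9, Lynx1 at 28.7, Chrnb2 at 8.60, Chrna4 at 7.13, Chrna7 at 2.99, Ric3 at 2.85, Chrna5 at 0.594, Chrna3 at 0.578, Chrna2 at 0.312 and Chrnb4 at 0.265. Of the 9 neighbouring pairs in that order, 3 held in 6 of 6 rats: Ly6h above Lynx1, Lynx1 above Chrnb2, and Ric3 above Chrna5. Each of these had an exact sign-flip p of 0.0312, the smallest that 6 rats allow, and 0.0938 after adjustment over the 9 pairs. The pairs and their direction were taken from the same 6 rats, so the p-values of neighbours are no independent support for the order. Chrnb2 was above Chrna4 in 5 of 6 rats (exact p of 0.0625), and so was Chrna4 above Chrna7 (exact p of 0.0938). The other 4 neighbours, Chrna7 and Ric3, Chrna5 and Chrna3, Chrna3 and Chrna2, and Chrna2 and Chrnb4, stood in either order in different rats. In manipulated rats Chrna4 and Chrna7 had nearly the same mean, 3.97 and 3.95 FPKM, and the mean of Chrna3 stood below that of Chrna2. In untreated rats Chrna4 stood apart above Ric3 and Chrna7. By mean Chrna3 stood above Chrna5, Chrnb4 and Chrna2 there, although the values of Chrna3 overlapped those of Chrna5 and of Chrnb4.

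Other genes of the nicotinic system were taken from 3 lists. Of 9 other subunits, 7 had a row of their own and 0 reached the filter. Chrna9 and Chrnd were listed at 0 in all 6 libraries. Of 11 symbols of assembly and trafficking factors, 10 were tested, 0 passed and 4 had an unadjusted p under 0.05 by limma, against 15.1% of all tested genes, with a median log2 fold change of -0.55, or -0.14 after median-ratio scaling. All 10 lay below 0 as deposited and 3 lay above 0 after scaling. Creld2, a protein of the endoplasmic reticulum that binds α4β2 subunits, had 2.20, 2.51 and 1.80 FPKM in manipulated rats, against 4.35, 5.40 and 4.28 FPKM in untreated rats. Its groups were apart, and the log2 fold change of -0.84 (SE 0.21) had a limma adjusted p of 0.221. Tmem35a, which encodes the chaperone NACHO of the α7 receptor, had 6.90, 6.62 and 4.41 FPKM in manipulated rats, against 9.85, 6.49 and 9.94 FPKM in untreated rats, so that its groups overlapped.

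Unc50, a trafficking factor known from worms to act on nicotinic receptors, was listed at 0 in manipulated replicate 4 and had 4.74 and 3.42 FPKM in replicates 5 and 6, against 7.16, 6.20 and 9.15 FPKM in untreated rats. The retention factor Rer1 averaged 10.6 ± 2.42 FPKM in manipulated and 17.0 ± 4.99 FPKM in untreated rats, Ubxn2a, which interacts with α3, 1.60 ± 1.02 FPKM in manipulated and 3.22 ± 0.541 FPKM in untreated rats, and the 14-3-3 protein Ywhah 129 ± 32.8 FPKM in manipulated and 217 ± 38.9 FPKM in untreated rats (SD, n = 3 each). Those 4 genes and Creld2, 5 of the 10 tested, had groups that were apart and lower as deposited, against 23.7% of all tested genes. Tmx3 (a disulfide isomerase), Canx (calnexin), Ubqln1 (ubiquilin) and Vsnl1 (a calcium sensor) overlapped between groups, with log2 fold changes of -0.42, -0.36, -0.21 and -0.23. Of 8 other Ly6 family genes, 3 were tested, 0 passed and 0 had an unadjusted p under 0.05 by limma, and the median was -0.22. Lypd1, which encodes Lynx2, had a log2 fold change of -0.22, Lypd6 of 0.064 and Ly6e of -0.59, each with groups that overlapped. Over all tested genes the median log2 fold change was -0.36.

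Markers of other brain regions differed between the groups. Of 12 thalamus markers 11 had a row of their own, and 10 of these had groups apart and lower, against 23.7% of all tested genes. By limma 8 of the 10 tested fell in manipulated rats, or 6 after median-ratio scaling, and the median of their log2 fold changes was -2.17, or -1.84 scaled. Prkcd had 4.50, 4.07 and 3.74 FPKM in manipulated rats, against 33.3, 29.5 and 40.8 FPKM in untreated rats, with a limma adjusted p of 0.00114. Tcf7l2 had 2.58, 2.52 and 1.40 FPKM in manipulated rats, against 12.0, 24.5 and 11.6 FPKM in untreated rats, with a limma adjusted p of 0.0186, or 0.160 after the scaling. Zic1 and Calb2 did not pass, with log2 fold changes of -0.49 and -1.09. No thalamus marker was at 0 throughout a group.

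Of 8 medial habenula markers, 7 had a row of their own, 3 were tested, 0 passed limma and 1 had an unadjusted p under 0.05. Gng8 had 3.40, 3.66 and 3.41 FPKM in manipulated rats, against 7.10, 12.0 and 6.46 FPKM in untreated rats, with a limma adjusted p of 0.228. Tac3 and Lrrc55 overlapped between groups. Chosen after their values were seen, Pou4f1 was listed at 0 in all manipulated libraries and had 0.316, 0.324 and 0.500 FPKM in untreated rats, and Gpr151 had 0.0596, 0.0746 and 0.0588 FPKM in manipulated rats, against 1.12, 0.837 and 1.20 FPKM in untreated rats. Pou4f1, a transcription factor, and Gpr151, a receptor, are known from the habenula, and both lay under the filter. Of all genes above 0 and under the filter, 15.8% had groups apart and lower in manipulated rats and 1.65% apart and higher. Among all tested genes these shares were 23.7 and 1.08%. Of the 7 habenula markers with a row of their own, 3 were apart and lower and 2 apart and higher. The markers of acetylcholine neurons on the list, Chat and Slc18a3, were higher in every manipulated rat, with Chat at 0.850, 0.686 and 1.39 FPKM in manipulated rats, against 0.161, 0.291 and 0.454 FPKM in untreated rats. Prph and Th led the autonomic markers, whose sum was 0.933 to 0.973 FPKM in manipulated and 1.72 to 3.28 FPKM in untreated rats.

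The cortical excitatory marker Slc17a7 was present in both groups, at 50.8 to 74.4 FPKM in manipulated and 71.5 to 110 FPKM in untreated rats. The pan-neuronal list was led by Snap25 and by Slc17a7, so that it was not made of pan-neuronal genes alone. It had 0 of 7 tested genes past limma and 0 with an unadjusted p under 0.05, and a median log2 fold change of -0.45. Its summed FPKM was 344 to 957 in manipulated and 750 to 858 in untreated rats. Deep-layer markers, led by Pcp4 and Crym, summed to 138 to 311 FPKM in manipulated and 394 to 610 FPKM in untreated rats. Pcp4 carried that sum, at 184 ± 74.3 FPKM in manipulated and 429 ± 121 FPKM in untreated rats (SD, n = 3 each), while 5 of the 8 tested markers had log2 fold changes above 0, with a median of 0.23, and 7 of 8 after median-ratio scaling. Upper-layer markers, led by Calb1 and Cux2, summed to 18.9 to 27.4 FPKM in manipulated and 24.2 to 32.8 FPKM in untreated rats. Genes of the interneuron list, led by Cck, Pvalb and Sst, summed to 186 to 258 FPKM in manipulated and 265 to 396 FPKM in untreated rats. Cck carried the lower sum, at 47.7 ± 7.60 FPKM in manipulated and 162 ± 31.5 FPKM in untreated rats. Which cells the RNA of Cck came from was not tested. Of the 10 tested genes of the list, 6 had log2 fold changes above 0 (median 0.40), and 7 of 10 did after the scaling. In these lists 0 genes passed limma, and 1, 0 and 5 had an unadjusted p under 0.05. Striatal markers, led by Ppp1r1b and Scn4b, had groups apart and higher for 9 of 11 genes. As deposited, 1.08% of all tested genes and 1.65% of genes above 0 and under the filter were apart and higher. The striatal sums were 79.6 to 204 FPKM in manipulated and 45.7 to 70.4 FPKM in untreated rats. Of 10 striatal markers tested, 0 passed limma as deposited and 9 had an unadjusted p under 0.05, against 15.1% of all tested genes. After median-ratio scaling 1 of the markers passed, Scn4b, with a log2 fold change of 1.73 and a limma adjusted p of 0.0246. Their Rarb had 2.20, 1.75 and 0.859 FPKM in manipulated rats and was listed at 0 in all untreated rats. Hypothalamic markers, led by Oxt and Avp, summed to 7.88 to 76.9 in manipulated and 73.5 to 140 in untreated rats, with 1 of 7 past limma and lower. Choroid plexus markers, led by Ttr and Folr1, summed to 239 to 1238 in manipulated and 459 to 468 in untreated rats, with Kcnj13 at 0, 6.47 and 7.02 FPKM in manipulated rats and listed at 0 in all untreated rats, 0 genes past limma and 3 with an unadjusted p under 0.05. Oligodendrocyte (Mbp), astrocyte (Gfap and Gja1), microglia (Cx3cr1 and Csf1r) and endothelial (Cldn5 and Flt1) markers had 0 genes past limma, and 2, both of astrocytes, had an unadjusted p under 0.05. The part of these lists in the values of the members was not tested.

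The genes whose centred log2(FPKM + 1) profile over the 6 libraries differed least from that of a member were listed by the root-mean-square difference. They were taken among symbols with a mean of at least 1 FPKM, with clone and locus names left out. Nearest to Chrna4 were Wsb1 at 0.031, Slitrk6 at 0.063, Adra1b, an adrenergic receptor, at 0.105, Cbln1, a synapse organiser, at 0.106 and Shisal1 at 0.115. The profile of Chrna4 itself departed from its mean by 0.601. Nearest to Chrnb2 were Mpi at 0.066, Cit at 0.070, Stum at 0.083, Lrp8 at 0.087 and Mb21d2 at 0.096, where Chrnb2 departed by 0.519. Nearest to Chrna3 were Akip1 at 0.070, Paox at 0.079, Depdc7 at 0.091, Cox18 at 0.124 and Ift43 at 0.125, where Chrna3 departed by 0.436. Of so many genes over 6 libraries some will lie near any profile, and these are a description.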

How the data were processed

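RNA-seq of 6 rats was compared, 3 manipulated and 3 untreated, with 1 library for each rat. The authors deposited FPKM values per gene and library, which STAR 2.7.3a and a version of Cufflinks not given made on the build Rnor_6.0, as the submitters' processing notes list. Each table gives an FPKM, the 2 bounds of an interval around it and a status, per the file headers. Not given in the sources used here were the annotation release, strand, RNA selection and read totals, so that depth is unknown. The intervals cover the estimate within a library and not the spread between rats. FPKM is scaled within a library, so that a few abundant transcripts lower all others.

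The values of a symbol were summed per library. Of 30076 symbols, 3254 that shared a row with another gene, 190 at several places, 35 missing from a library and 7 with a failed estimate were left out, which kept 26641. The 10657 that averaged 1 FPKM or more entered a two-sided limma test (3.58.1, run in R 4.3.3) of log2(FPKM + 1). It had a variance trend, no covariates, Benjamini-Hochberg adjustment over all tested genes and a threshold of 0.05. A log2 fold change is manipulated minus untreated and, with the pseudocount, understates low genes. Members under the filter were fitted with no filter. Single values and ratios were compared by exact two-sided permutation tests, which with 3 against 3 cannot go below 0.1, and neighbouring levels by exact sign-flip tests within rats, adjusted over the pairs. The fit was tested on simulated data. Row starts were found to count from 0, since 1371 rows then matched a RefSeq length and 280 did otherwise, and are given counted from 1. Figures were drawn with matplotlib 3.10.9, and tables made with numpy 2.4.6 and pandas 2.3.3 under Python 3.11.15. Promoters came from RefSeq (GRCr8) and share no coordinates with the Rnor_6.0 rows.

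The members and all 17 gene lists were chosen with earlier results of these data known. Besides the members, the genes named are first those of the other nicotinic lists that averaged 1 FPKM or more. Next are the 5 genes nearest in profile to Chrna4, Chrnb2 and Chrna3, with clone and locus names left out. Last are the most abundant 2 to 4 of each marker list that have a row of their own. Of the marker genes that this rule takes, 1 is not reported here. Other names, among them genes listed at 0 and genes that overlap a member, were chosen after their values were seen. Alternatives covered the pseudocount, the filter, the scaling, the variance model, weights per library, shared rows and leaving out each library. Scaling for genes under the filter and for counts of groups apart was added after seeing the data.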

Additional observations from a re-analysis of the deposited data

How the results depend on the processing

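With 3 rats in a group and no counts, differences of low genes are poorly resolved. All genes past limma numbered 38, and 84 with the robust prior of the variance, 940 when libraries were weighted and 25 with rows naming several genes kept. Of the 6 tested members 0 passed, against 1 with the robust prior and 2 with the weights. The cause was not tested. Leaving out a library in turn gave 28 to 56 genes and 0 members. Chrna4 kept its direction in 15 of 15 settings (-1.37 to -0.79), Chrnb2 in 15 of 15 (-1.05 to -0.53) and Chrna7 in 14 of 14 (0.26 to 0.96). With median-ratio and with upper-quartile scaling, the log2 fold change was 0.074 and 0.060 for Ric3, 0.036 and 0.018 for Lynx1, and 0.37 and 0.35 for Ly6h, all turned round. Leaving out a library gave -0.67 to 0.048 for Ric3, -0.17 to 0.011 for Ly6h, and -0.026 to 0.45 for the log2 difference of Chrna3 over Chrnb4, which was -0.32 with a pseudocount of 1 and -0.34 with 0.1. Leaving out a library gave -0.027 to 0.24 for Chrna5. No paired analysis was possible because the replicate numbers of the groups, 1 to 3 and 4 to 6, are not shared.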

Other observations

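Loci that carry no gene name, assembled in a library by itself, overlapped some of the members. The span of Chrna7 held 2, 1 and 2 of them in manipulated replicates 4, 5 and 6, against 11, 5 and 7 in untreated replicates 1, 2 and 3. Their summed FPKM was 3.28, 1.41 and 1.84 in manipulated rats, against 38.0, 3.80 and 5.86 in untreated rats, so that untreated replicate 1 stood highest and all untreated sums lay above all manipulated ones. In Chrna5 such loci summed to 2.49, 0.709 and 6.46 FPKM in manipulated rats, against 0.130, 0.462 and 2.62 FPKM in untreated rats, and these groups overlapped. Chrna4 held 3, 1 and 0 of them in manipulated rats, against 1, 3 and 2 in untreated rats. They summed to 2.57, 0.863 and 0 FPKM in manipulated rats, against 0.468, 3.03 and 2.39 FPKM in untreated rats, and these groups overlapped. Chrna2 held 1 in manipulated replicate 4 and 1 in untreated replicate 3, and Ric3 held 1 in manipulated replicate 6, at 0.777 FPKM. In Chrna3, Chrnb2, Chrnb4, Lynx1 and Ly6h there were 0.

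Between Chrna3 and Chrnb4 lies a row with the clone name AC108616.2 (chromosome 8, 59608666 to 59609138, Rnor_6.0), chosen after its values were seen. It was listed at 0 in all 3 manipulated libraries and had 0.115, 0.403 and 0.568 FPKM in untreated rats.

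The Chrna4 row of manipulated replicate 4 begins earlier than the others, at 176520984, and reaches into Col20a1. The row of Col20a1 had 1.46, 1.14 and 1.49 FPKM in manipulated rats, against 0.248, 0.938 and 0.951 FPKM in untreated rats, higher in every manipulated rat.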
